A study of Mus musculus with 516 samples.

Results

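P2rx3, Acpp, Lpar3 and Gfra2 are 4 genes known as markers of non-peptidergic nociceptors, the unmyelinated pain-sensing neurons of the dorsal root ganglion that carry little neuropeptide. They were taken by symbol and make up 4 of the 11251 genes in a table of reads per gene and cell from 516 cells of mouse dorsal root ganglia, which hold the cell bodies of the body's sensory neurons. The study set 2 inbred strains, CAST/Ei and C57BL/6, against each other in cells captured fresh and in cells taken after in vitro axotomy, and its title names strain differences in cell populations. Cultured CAST/Ei and cultured C57BL/6 cells had been dissociated, which cuts the axons, grown on bare plastic for 48 h with the mitotic inhibitor ara-C from 24 h on, and lifted with trypsin. Naive CAST/Ei and naive C57BL/6 cells went from dissociation straight to a microfluidic capture chip, so both states share dissection and dissociation. The labels give no genotype beyond the strain, no age, no sex, and do not say which cells came from the same mouse or dish. All cells of a group thus count as 1 sample, no comparison has a test, and all intervals cover counting error only.

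These neurons are known to depend on the receptor tyrosine kinase Ret after birth and on the transcription factor Runx1, and they end in the skin. P2rx3 encodes the P2X3 subunit of ATP-gated cation channels, which let sensory endings respond to ATP. Acpp encodes prostatic acid phosphatase, whose transmembrane form acts as an ectonucleotidase that turns AMP into adenosine. Lpar3 encodes a G protein-coupled receptor for lysophosphatidic acid, and Gfra2 encodes the co-receptor through which neurturin, a GDNF family ligand, activates Ret.

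In GENCODE vM21 on the mouse assembly GRCm38, the Genome Reference Consortium name of mm10, all 4 are protein-coding genes. P2rx3 lies at chr2:84998583-85037462 on the minus strand, Acpp at chr9:104288251-104337748 on the minus strand, Lpar3 at chr3:146220963-146286186 on the plus strand and Gfra2 at chr14:70890120-70979838 on the plus strand. The 5′ end of P2rx3 overlaps the oppositely oriented gene Ssrp1, a histone chaperone subunit, by 229 bases, of which 51 are exonic in both, whereas the RefSeq annotation has the genes apart. Neither the counting annotation nor the use of strand is given in the sources used here, so reads in those bases could count for either gene. Acpp and Lpar3, the members whose promoters are in the RefSeq table used (GRCm38.p6), are given here because both had far fewer reads after culture in both strains. Capitals mark each CG dinucleotide in the 250 bases before the annotated start, written 5′ to 3′ on the gene's strand, from chr9:104337723-104337972 (minus) and chr3:146220711-146220960 (plus).
Acpp: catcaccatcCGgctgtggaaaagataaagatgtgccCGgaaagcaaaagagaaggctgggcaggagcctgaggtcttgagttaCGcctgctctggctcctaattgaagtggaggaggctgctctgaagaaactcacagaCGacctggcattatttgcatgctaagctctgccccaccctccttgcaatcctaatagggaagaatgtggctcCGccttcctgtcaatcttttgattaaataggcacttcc
Lpar3: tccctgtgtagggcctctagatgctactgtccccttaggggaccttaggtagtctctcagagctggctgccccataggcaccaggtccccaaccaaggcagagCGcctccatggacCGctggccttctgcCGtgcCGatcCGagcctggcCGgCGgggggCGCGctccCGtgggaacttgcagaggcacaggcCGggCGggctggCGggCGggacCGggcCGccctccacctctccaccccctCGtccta
The Acpp window holds 5 CG and the Lpar3 window 17, against a median of 6 over 32851 windows of the same length. Of those windows, 55.6% hold at least 5 and 23.5% at least 17. Their G and C content is 50.4% and 69.6%, so the 2 windows differ in base composition although both genes were lower after culture. The RUNX core sequences TGTGGT and TGCGGT were searched on both strands, since Runx1 belongs to this lineage. Neither window holds one, as against 18.6% of all windows.

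The table holds 496696577 reads, and the median cell had 1111710 reads in cultured CAST/Ei, 729522 in cultured C57BL/6, 960205 in naive CAST/Ei and 696013 in naive C57BL/6. Cells were grouped into 13 clusters without the 4 members and without the other genes of the non-peptidergic list used below, so the levels by cluster were not shaped by the members themselves. Neuron-like cells, those of clusters in which the neuron marker list had the highest mean, made up 78.8% of cultured CAST/Ei cells (78 cells), 34.2% of cultured C57BL/6 cells (38 cells), 89.7% of naive CAST/Ei cells and 87.9% of naive C57BL/6 cells. All 34 neuron markers are in the table and had reads in each of these 4 sets. Values in CPM are reads of a gene per 1000000 reads of all genes, summed over the cells named. They are not scaled by transcript length and are compared within a gene, not between genes.

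Among naive neuron-like cells the 4 members did not mark the same set of cells. Lpar3 reads lay mostly in 1 kind of cell and Gfra2 reads in 2, Acpp was high in all kinds but 1, and P2rx3 was graded and differed by strain. Each strain's naive neurons fell into 5 clusters that could be matched across strains, 2 of them shared clusters and 3 each other's best match with a correlation across genes of 0.923 to 0.935. The next best C57BL/6 cluster for these 3, shared clusters aside, had 0.866 to 0.901, so the margins were small. The smallest was 0.923 against 0.901, for the Mrgpra3 pair named below. Between strains the shared clusters had 0.927 and 0.895. The pairs are called here by a gene among the 10 leading genes on both sides: Mrgprd (33 CAST/Ei and 26 C57BL/6 cells), Th (28 and 32), Mrgpra3 (54 and 19), Sst (13 and 6) and Tac1 (28 and 33). Mrgprd encodes a receptor known from non-peptidergic skin afferents, Th tyrosine hydroxylase of C-fibre low-threshold mechanoreceptors, Mrgpra3 an itch receptor, Sst somatostatin and Tac1 the precursor of substance P.

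Lpar3 was highest in the Mrgprd pair, with 390 CPM in CAST/Ei (exact 95% Poisson interval 383 to 398) and 209 CPM in C57BL/6 (202 to 216). In the other 4 pairs it lay between 9.34 and 16.9 CPM in CAST/Ei and between 4.01 and 14.98 CPM in C57BL/6. The Mrgprd pair held 86.9% of all Lpar3 reads of naive CAST/Ei neuron-like cells and 82.6% of those of naive C57BL/6. Within it the lowest, median and highest cells had 39.2, 251 and 788 CPM in CAST/Ei, against 0, 222 and 356 CPM in C57BL/6, so the strains overlap over most of their range. Outside that pair the median cell had between 0 and 1.43 CPM in CAST/Ei and between 0 and 10.1 CPM in C57BL/6.

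Gfra2 was high in 2 pairs. The Th pair had 428 CPM in CAST/Ei (422 to 435) and 456 CPM in C57BL/6 (448 to 464). The Mrgprd pair had 258 CPM in CAST/Ei (252 to 264) and 212 CPM in C57BL/6 (205 to 220). No cell of either pair was without a Gfra2 read, the lowest having 80.03 and 86.9 CPM in the Mrgprd pair and 163.2 and 114.6 CPM in the Th pair, CAST/Ei before C57BL/6. The Th pair held 62.7% of the Gfra2 reads of naive CAST/Ei neuron-like cells and 76.04% of those of naive C57BL/6, so most reads of this gene came from cells other than the Mrgprd ones. In the remaining 3 pairs Gfra2 lay at 35.6 CPM or less in CAST/Ei and 18.8 CPM or less in C57BL/6. The 35.6 CPM of the CAST/Ei Mrgpra3 cluster, against 5.91 CPM in C57BL/6, rested to 38.2% on 1 cell.

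Acpp had similar levels in 3 pairs and in both strains. It stood at 867 CPM in CAST/Ei and 819 CPM in C57BL/6 in the Mrgprd pair, at 867 and 851 CPM in the Th pair, and at 958 and 991 CPM in the Mrgpra3 pair. Every cell of these 3 pairs had Acpp reads, the lowest with 238 CPM in CAST/Ei and 295 CPM in C57BL/6. The Sst pair had 498 CPM in CAST/Ei and 972 CPM in C57BL/6, where 1 of the 6 cells held 48.5% of the reads. The Tac1 pair stood apart with 47.3 CPM in CAST/Ei and 26.8 CPM in C57BL/6.

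P2rx3 was highest in the Mrgprd pair, at 507 CPM in CAST/Ei (499 to 516) and 212 CPM in C57BL/6 (205 to 220). The lowest, median and highest cells there had 95.2, 471 and 1059 CPM in CAST/Ei, against 92.9, 192 and 586 CPM in C57BL/6. In the Mrgpra3 pair it had 112.1 CPM in CAST/Ei and 128.96 CPM in C57BL/6, and in the Tac1 pair 39.2 and 46.7 CPM. The Sst pair had 266 CPM in CAST/Ei and 60.4 CPM in C57BL/6, where the lowest CAST/Ei cell (140 CPM) lay above the highest of the 6 C57BL/6 cells (110 CPM). The order of the pairs thus differed between strains, with the Th pair second in CAST/Ei and last in C57BL/6.

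**Figure D1:**
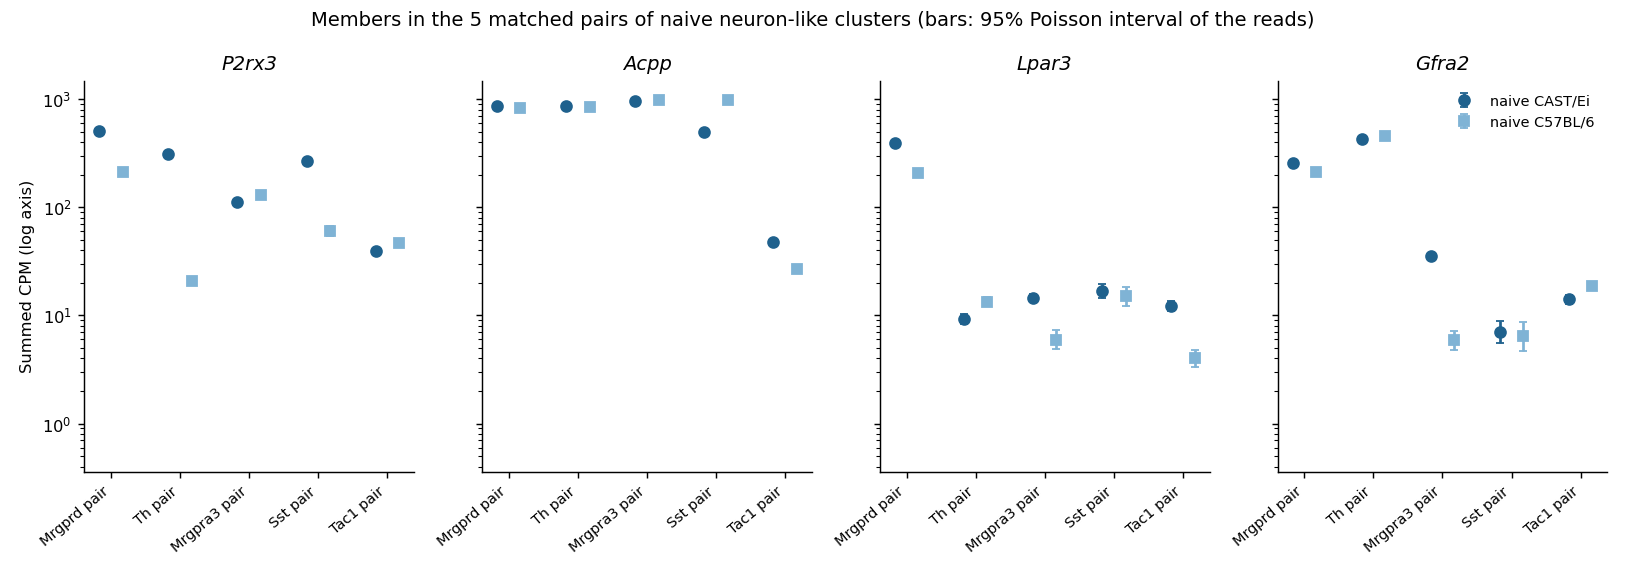
Summed CPM of each member (log axis) in the 5 matched pairs of naive neuron-like clusters, CAST/Ei as circles left and C57BL/6 as squares right, with bars for the 95% Poisson interval of the reads. Lpar3 is high in the Mrgprd pair, Gfra2 in the Mrgprd and Th pairs, Acpp in all but the Tac1 pair, and P2rx3 in the Th pair reaches 311 CPM in CAST/Ei and 20.97 CPM in C57BL/6.

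The P2rx3 difference in the Th pair was the widest strain difference among the 20 values for 4 members in 5 pairs. The 28 CAST/Ei cells had 311 CPM (306 to 317) and the 32 C57BL/6 cells 20.97 CPM (19.3 to 22.7), a 14.8-fold difference and a log2 ratio of 3.83 on the scale of CPM plus 1. Lowest, median and highest cells had 0.487, 278 and 755 CPM in CAST/Ei, against 0, 6.77 and 89.7 CPM in C57BL/6. The ranges overlap at their ends, but 21 of the 28 CAST/Ei cells lay above the highest C57BL/6 cell, and 9 of the 32 C57BL/6 cells had no P2rx3 read. In this pair 12.9% of all genes were at least 2-fold higher in CAST/Ei and 9.76% at least 2-fold lower, and 20 of the 11251 genes had a higher ratio than P2rx3. The other 3 members of the same cells were close between strains, with log2 ratios of 0.03 for Acpp, -0.09 for Gfra2 and -0.48 for Lpar3. Ssrp1, the overlapping gene, had 51.97 CPM in the CAST/Ei and 53.6 CPM in the C57BL/6 cells of this pair. When cells were instead picked by Th alone, at 500 CPM or more, 30 CAST/Ei cells had 310 CPM of P2rx3 and 26 C57BL/6 cells 17.4 CPM.

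In the Mrgprd pair 1 of 4 members, P2rx3 with a log2 ratio of 1.25, was at least 2-fold higher in CAST/Ei, beside 15% of all genes, and none was at least 2-fold lower, beside 6.83%. Lpar3 stood at 0.90, Gfra2 at 0.28 and Acpp at 0.08 in that pair. In the Mrgpra3 pair Gfra2 (2.41) and Lpar3 (1.16) were at least 2-fold higher in CAST/Ei, beside 13.5% of all genes and with none of 4 at least 2-fold lower, beside 9.21%, and both had low levels there. The sides of this pair were not alike in other genes. Their first leading genes were Mrgprb4 in CAST/Ei and Car8 in C57BL/6, and Mrgprd had 98.9 and 10.3 CPM. In the Sst pair the 1 such member was P2rx3 (2.12, beside 23.4% of all genes), with none lower (14.2%), and in the Tac1 pair it was Lpar3 (1.40, 12.8%), with none lower (11.4%). The Tac1 pair also held unlike cells, with Nefh at 63.8 CPM in CAST/Ei and 598 CPM in C57BL/6. The lower quartile of Tac1 itself was 1836 CPM in CAST/Ei and 98.8 CPM in C57BL/6. What the mix of cells inside a pair does to these ratios was not tested. Summed over all naive neuron-like cells, P2rx3 had 226 CPM in CAST/Ei (224 to 228) and 81.8 CPM in C57BL/6 (80.04 to 83.7), a log2 ratio of 1.45. Of the 4 members it alone was 2-fold or more above C57BL/6, beside 7.23% of all genes, and 343 of 11251 genes had a higher ratio. None of the 4 was at least 2-fold lower, beside 6.2% of all genes. Lpar3 had 79.8 CPM in CAST/Ei and 41.6 CPM in C57BL/6 (log2 ratio 0.92), Acpp 713 and 636 CPM (0.16), and Gfra2 162.2 and 175 CPM (-0.11). The mix of cells differed between strains, since the Mrgpra3 pair made up 34.6% of naive CAST/Ei neuron-like cells and 16.4% of naive C57BL/6 ones, and the Th pair 17.9% and 27.6%. With the 5 pairs weighted equally the ratio of P2rx3 was 1.39. Reads of both strains were placed on mm10, a C57BL/6 genome, and what this does to CAST/Ei counts was not tested.

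**Figure D2:**
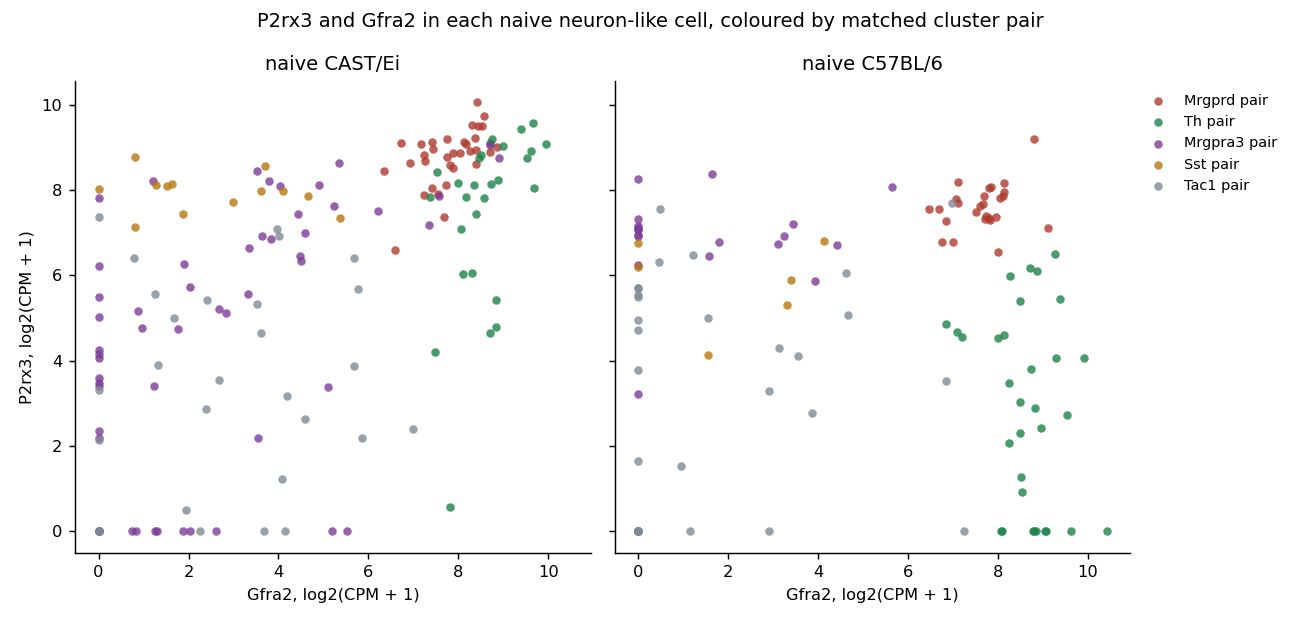
P2rx3 against Gfra2 in each naive neuron-like cell on the log2(CPM + 1) scale, CAST/Ei left and C57BL/6 right, coloured by matched cluster pair. Cells of the Th pair lie high on both axes in CAST/Ei and spread down to 0 on the P2rx3 axis in C57BL/6.

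P2rx3 and Gfra2 went together across naive cells in CAST/Ei and hardly at all in C57BL/6. Across naive neuron-like cells Pearson's r between them on the log2 scale was 0.59 in CAST/Ei and 0.03 in C57BL/6. For P2rx3 with Lpar3 it was 0.44 in both strains, for P2rx3 with Acpp 0.35 in CAST/Ei and 0.45 in C57BL/6, and for Acpp with Lpar3 0.15 and 0.31. These are descriptions across cells whose mouse of origin is not given and that differ in depth. P2rx3 also varied inside the CAST/Ei Mrgpra3 cluster, where its lowest, median and highest cells had 0, 34.1 and 532 CPM. Across those 54 cells r was 0.60 with Mrgprd, 0.50 with Gfra2 and -0.54 with Mrgprb4, a receptor known from touch-sensitive skin afferents. With the other members it was 0.21 for Lpar3 and -0.29 for Acpp. It was -0.22 with Mrgpra3 and 0.25 with Calca.

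Cells that held all 4 members were mostly Mrgprd cells. After each cell was thinned to 200000 reads, with shallower cells left out, a member was called present at 5 or more reads. This left out 8 cultured CAST/Ei, 7 cultured C57BL/6, 8 naive CAST/Ei and 7 naive C57BL/6 neuron-like cells. All 4 were present in 29 of 29 CAST/Ei and 22 of 24 C57BL/6 cells of the Mrgprd pair. In the Th pair 3 of 4 members were present in 23 of 27 CAST/Ei cells, while 19 of 31 C57BL/6 cells had 2. Over naive neuron-like cells all 4 were present in 24.3% of CAST/Ei cells (36 cells, exact Clopper-Pearson interval 17.7 to 32.1) and 21.1% of C57BL/6 cells (23 cells, 13.9 to 29.96). In culture 0 of 70 CAST/Ei cells held all 4, which by the same interval allows a share of up to 5.13%, and 1 of 31 C57BL/6 cells did. Cells with none of the 4 made up 32.9% of cultured CAST/Ei and 29.03% of cultured C57BL/6 neuron-like cells, against 2.70% and 10.1% of the naive ones.

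**Figure D3:**
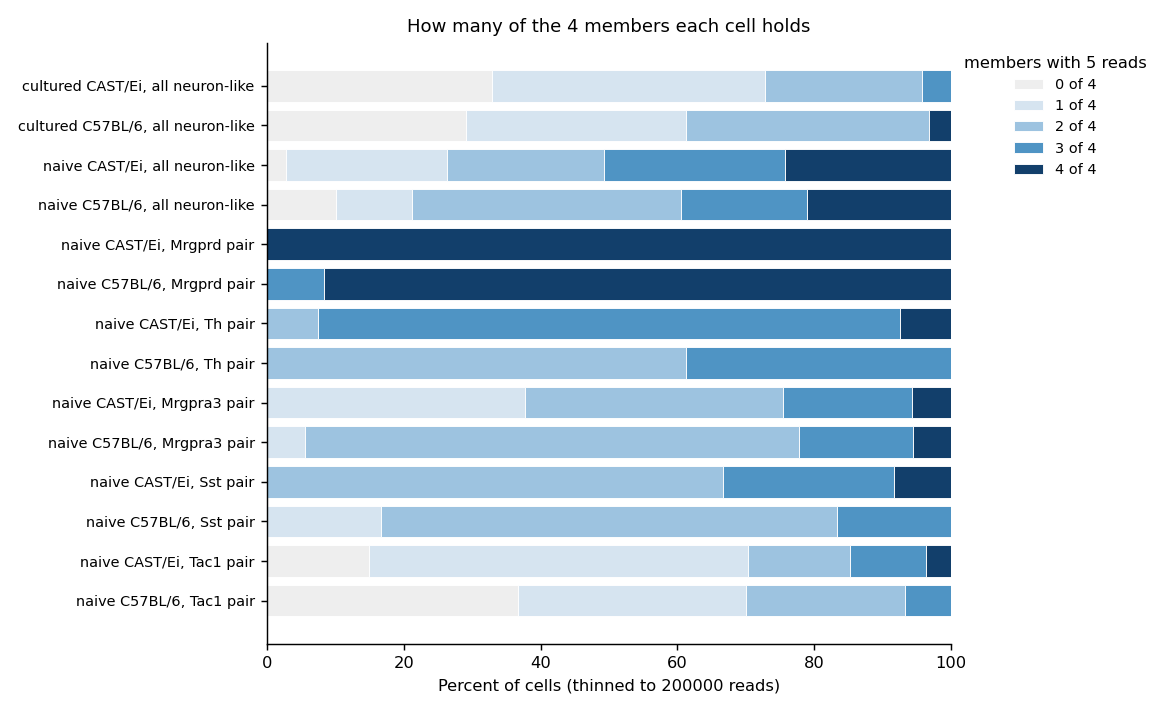
Percent of thinned cells with 0 to 4 members present, for all neuron-like cells of the 4 groups and for the 5 matched naive cluster pairs. The Mrgprd pair is nearly all cells with 4 members, and among naive pairs only the Tac1 pair has cells with 0, which are common in both cultured groups.

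The genes most like each member differed for the most part, with Mrgprd shared by P2rx3 and Lpar3 and Txn1 by Lpar3 and Gfra2. Likeness was the mean of the 2 strains' Pearson correlations over naive neuron-like cells, among 7893 genes with at least 10 CPM in both. Acpp was followed most closely by Tmem45b, with a mean r of 0.88, then Paqr5 (0.82), Rgs4 (0.78), Fxyd2 (0.77) and Scg3 (0.77). Lpar3 was closest to Gm765 (0.78), Mrgprd (0.72) and the kinase gene Prkcq (0.71), and Kcnab1 (0.57) and Txn1 (0.54) came next. Txn1 (0.76), Cdh1 (0.72), Fam19a4 (0.72), Rasgrp1 (0.72) and N28178 (0.70) stood nearest to Gfra2. P2rx3 had no gene as close, with Mrgprd (0.57), Cd24a (0.55), Gnaq (0.54) and Ctxn3 (0.53) among its highest. At the other end, Acpp ran against Fxyd7 (-0.71), Kcnk3 (-0.69) and the neuropeptide gene Adcyap1 (-0.67). Lpar3 ran against Ptprs (-0.66), Hpcal1 (-0.62) and Tuba4a (-0.62), and Gfra2 against Ptprn (-0.77), Parva (-0.75) and Resp18 (-0.69). The lowest values for P2rx3 were those of Hopx (-0.52), Tagln3 (-0.50) and Ak1 (-0.49). By Spearman's rank correlation, 4 of the 5 highest genes stayed there for P2rx3, 2 for Acpp, 3 for Lpar3 and 3 for Gfra2. By Pearson's r in cultured neuron-like cells it was 0, 1, 2 and 0 in the same order.

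After 48 h in culture, 3 of the 4 members were far lower in neuron-like cells of both strains, and P2rx3 was not. In CAST/Ei all 4 members were at least 2-fold lower than in naive cells, beside 20.2% of all genes, and in C57BL/6 it was 3 of 4, beside 23.4%. The cultured-to-naive ratio of each strain is given side by side, and the strain comparisons below use the same 4 groups of cells. The cultured neuron-like cells themselves lay almost all in 2 clusters of their own, so they could not be assigned to the naive pairs.

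Acpp had 29.8 CPM in cultured CAST/Ei (28.7 to 30.96) and 713 CPM in naive CAST/Ei (709 to 717), a log2 ratio of -4.53. In C57BL/6 it had 32.7 CPM in cultured cells (30.3 to 35.2) and 636 CPM in naive cells (631 to 641), a log2 ratio of -4.24. Of all genes, 35 had a lower ratio in CAST/Ei and 78 in C57BL/6. The median cell had 0 CPM in cultured CAST/Ei and 4.79 CPM in cultured C57BL/6, against 730 CPM in naive CAST/Ei and 691 CPM in naive C57BL/6. Culture and naive ranges overlap, the highest cultured cell having 861 CPM in CAST/Ei and 833 CPM in C57BL/6. Naive cells reached down to 0 CPM in both strains, with a lower quartile of 444 CPM in CAST/Ei and 74.6 CPM in C57BL/6. Acpp was present in 25.7% of thinned cultured CAST/Ei cells (18 of 70) and 32.3% of cultured C57BL/6 cells (10 of 31), against 90.5% and 82.6% of naive cells. Of the cultured cells that were not neuron-like, 5% of CAST/Ei (1 of 20) and 0% of C57BL/6 (0 of 66, which allows up to 5.44%) had it.

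Lpar3 was close to the limit of detection in culture. It had 19 reads in all in the 78 cultured CAST/Ei neuron-like cells, 0.226 CPM (0.136 to 0.353), and 79.8 CPM in naive CAST/Ei (78.4 to 81.2), a log2 ratio of -6.04 that 2 of the 11251 genes exceeded downward. In C57BL/6 it had 2.28 CPM in cultured cells (1.69 to 3.02) and 41.6 CPM in naive cells (40.3 to 42.9), a log2 ratio of -3.70. No read was found in 73 of 78 cultured CAST/Ei and 35 of 38 cultured C57BL/6 cells, against 67 cells of naive CAST/Ei and 56 of naive C57BL/6. The thinned share was 1.43% (1 of 70) in cultured CAST/Ei and 3.23% (1 of 31) in cultured C57BL/6 neuron-like cells, against 5% (1 of 20) and 0% (0 of 66, which allows up to 5.44%) of cultured cells that were not neuron-like. With 1 cell or none on each side, a difference was not detectable at this depth. Naive shares were 31.8% in CAST/Ei and 28.4% in C57BL/6. In the unnamed naive cluster led by endothelial and interferon genes, which also carried neuron transcripts, they were 13.3% (2 of 15) and 33.3% (5 of 15), so the C57BL/6 share over all neuron-like cells is no higher than this. In the Mrgprd pair it was 100% and 91.7%.

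Gfra2 had 16.1 CPM in cultured CAST/Ei (15.2 to 16.9) and 162.2 CPM in naive CAST/Ei (160.2 to 164.2), a log2 ratio of -3.26. In C57BL/6 it had 5.40 CPM in cultured cells (4.46 to 6.48) and 175 CPM in naive cells (172.4 to 177.7), a log2 ratio of -4.78. The median cell had 0 CPM in both cultured groups, against 26.5 CPM in naive CAST/Ei and 110 CPM in naive C57BL/6. The highest cell had 441 CPM in cultured CAST/Ei and 36.04 CPM in cultured C57BL/6, against 980 and 1371 CPM in the naive groups. It was present in 12.9% and 9.68% of thinned cultured cells and in 52.03% and 55.96% of naive cells, CAST/Ei before C57BL/6. Of cultured cells that were not neuron-like, 0% in CAST/Ei (0 of 20) and 25.8% in C57BL/6 (17 of 66) had it. The C57BL/6 value is no background for this gene, since the glia-like cells among them had Gfra2 at 53.1 CPM. Ret, the kinase that Gfra2 serves, was within 2-fold, at 353 CPM in cultured and 426 CPM in naive CAST/Ei and at 239 CPM in cultured and 408 CPM in naive C57BL/6.

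P2rx3 had 106.2 CPM in cultured CAST/Ei (104.05 to 108.5) and 226 CPM in naive CAST/Ei (224 to 228), a log2 ratio of -1.08. It had 78.4 CPM in cultured C57BL/6 (74.7 to 82.2) and 81.8 CPM in naive C57BL/6 (80.04 to 83.7), a log2 ratio of -0.06, near the middle of all genes. Lowest, median and highest cells had 0, 32.2 and 936 CPM in cultured CAST/Ei, against 0, 152.3 and 1059 CPM in naive CAST/Ei. In C57BL/6 they had 0, 81.6 and 433 CPM in culture, against 0, 51.04 and 586 CPM in naive cells, so cultured and naive cells overlap over nearly the whole range in both strains. The CAST/Ei ratio passed 2-fold by little, and over the alternatives it lay between -1.84 and -0.70. P2rx3 was present in 58.6% of thinned cultured CAST/Ei cells (41 of 70) and 70.97% of cultured C57BL/6 cells (22 of 31), against 71.6% and 62.4% (68 cells) of naive cells. Of cultured cells that were not neuron-like, 20% in CAST/Ei (4 of 20) and 12.1% in C57BL/6 (8 of 66) had it. Ssrp1, whose end overlaps P2rx3, had 58.8 CPM in cultured CAST/Ei and 92.6 CPM in cultured C57BL/6, against 50.5 and 47.9 CPM in the naive groups, and its part in the P2rx3 values was not tested.

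Without thinning, the shares of cultured CAST/Ei, cultured C57BL/6, naive CAST/Ei and naive C57BL/6 neuron-like cells with 5 or more reads were 66.7%, 73.7%, 82.1% and 73.3% for P2rx3. They were 33.3%, 39.5%, 95.5% and 87.1% for Acpp, 2.56%, 2.63%, 44.2% and 37.9% for Lpar3, and 24.4%, 26.3%, 66.03% and 66.4% for Gfra2. Thinned or not, the share was lower in culture for all members and strains except P2rx3 in C57BL/6. The cells kept for thinning had a median of 1140490 reads in cultured CAST/Ei and 614615 in cultured C57BL/6 neuron-like cells, and of 1566750 and 900390 in the cultured cells that were not neuron-like.

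**Figure D4:**
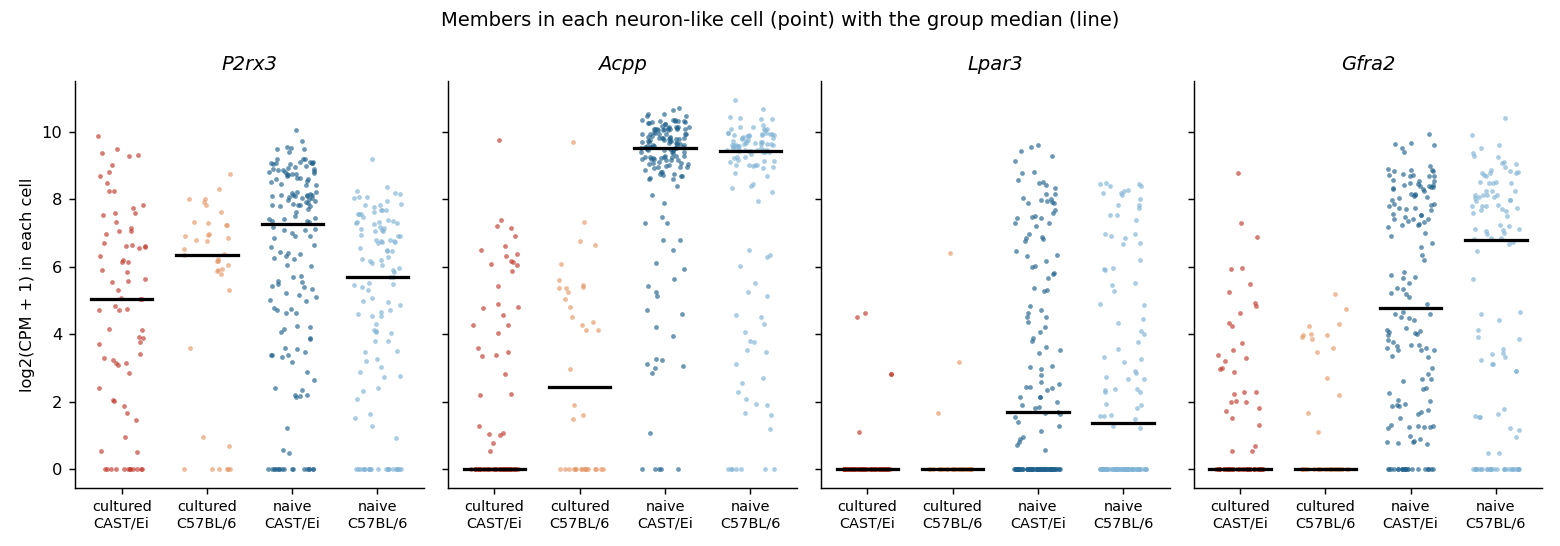
Level of each member in every neuron-like cell on the log2(CPM + 1) scale, by group, with a line at the group median. Acpp, Lpar3 and Gfra2 lie at or near 0 in most cultured cells of both strains, while the P2rx3 medians are 32.2 and 81.6 CPM in the cultured and 152.3 and 51.04 CPM in the naive groups, CAST/Ei before C57BL/6.

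The cultured cells were not alike. Of the clusters that held nearly all cultured neurons, cluster 2 was led by genes such as Sprr1a, Nts and Gal, known from injured sensory neurons, and cluster 3 by Mylk4, Nkain1 and Npy. P2rx3 had 106.3 CPM in CAST/Ei and 121.8 CPM in C57BL/6 cells of cluster 2, and 108.5 and 32.2 CPM in those of cluster 3. Its median in cluster 3 was 15.3 CPM in CAST/Ei and 0.959 CPM in C57BL/6, so few cells carried the sum. Acpp stood at 28.99 and 21.2 CPM in cluster 2 and at 10.8 and 2.64 CPM in cluster 3. Gfra2 had 8.46 and 9.43 CPM in cluster 2 and 19.9 and 0.0977 CPM in cluster 3, so it was higher in cluster 3 in CAST/Ei. There a single CAST/Ei cell held 48.4% of its reads, and C57BL/6 had 1 read. Lpar3 had 19 and 4 reads in cluster 2 and none in the 44 CAST/Ei and 13 C57BL/6 cells of cluster 3.

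A pair of cultured neuron-like cells clustered with naive cells and held much of what was left of 2 members. The C57BL/6 one lay in the Mrgprd cluster and had 833 CPM of Acpp, 83.5 CPM of Lpar3, 25.98 CPM of Gfra2, 90.9 CPM of P2rx3 and 113.2 CPM of Mrgprd. It carried 63.9% of the Acpp reads and 91.8% of the Lpar3 reads of its group, and the highest of the other 37 cells had 160.9 and 8.10 CPM. The CAST/Ei one lay in the Mrgpra3 cluster and had 861 CPM of Acpp, 788 CPM of Mrgpra3, 9.75 CPM of P2rx3 and no read of Lpar3 or Gfra2. It carried 45.7% of the Acpp reads of its group. Both had reads of the injury-induced gene Atf3, at 369 CPM in the C57BL/6 cell and 403 CPM in the CAST/Ei cell, against medians of 493 and 300.5 CPM in the other cells of their groups. Their Sprr1a was low, at 7.42 and 13.5 CPM against medians of 120 and 241 CPM. Without these cells the log2 ratio of Acpp was -5.35 in CAST/Ei and -5.60 in C57BL/6, and that of Lpar3 -6.04 and -5.16.

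Other genes of the lineage were mostly lower after culture too. Of the 17 non-peptidergic list genes in the table, 14 stood 2-fold or more below naive cells and 0 as far above them in cultured CAST/Ei, with a median log2 ratio of -2.64 against 0.11 over all genes. In C57BL/6 13 were lower and 2 higher, with a median of -2.39 against -0.05. Of all genes, 20.2% were as far below and 24.1% as far above naive cells in CAST/Ei, and 23.4% and 22.8% in C57BL/6. Mrgprd had log2 ratios of -4.40 in CAST/Ei and -4.88 in C57BL/6, the sodium channel gene Scn11a -4.42 and -4.26, the complement regulator Cd55 -3.69 and -3.94, and Tmem45b, the gene closest to Acpp, -2.64 and -2.58. Without the top cell of each group Mrgprd stood at -4.82 and -6.40, Scn11a at -5.40 and -4.71, and Cd55 at -4.54 and -5.22. Runx1 was within 2-fold in both strains, and Gfra1, the GDNF co-receptor, stood at 0.29 in CAST/Ei and 1.38 in C57BL/6. Markers of other neuron types were lower as well, 9 of 12 in each strain, among them Tac1 (-4.81 and -4.94), Calca (-2.67 and -2.65) and Th (-5.42 and -8.19).

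**Figure D5:**
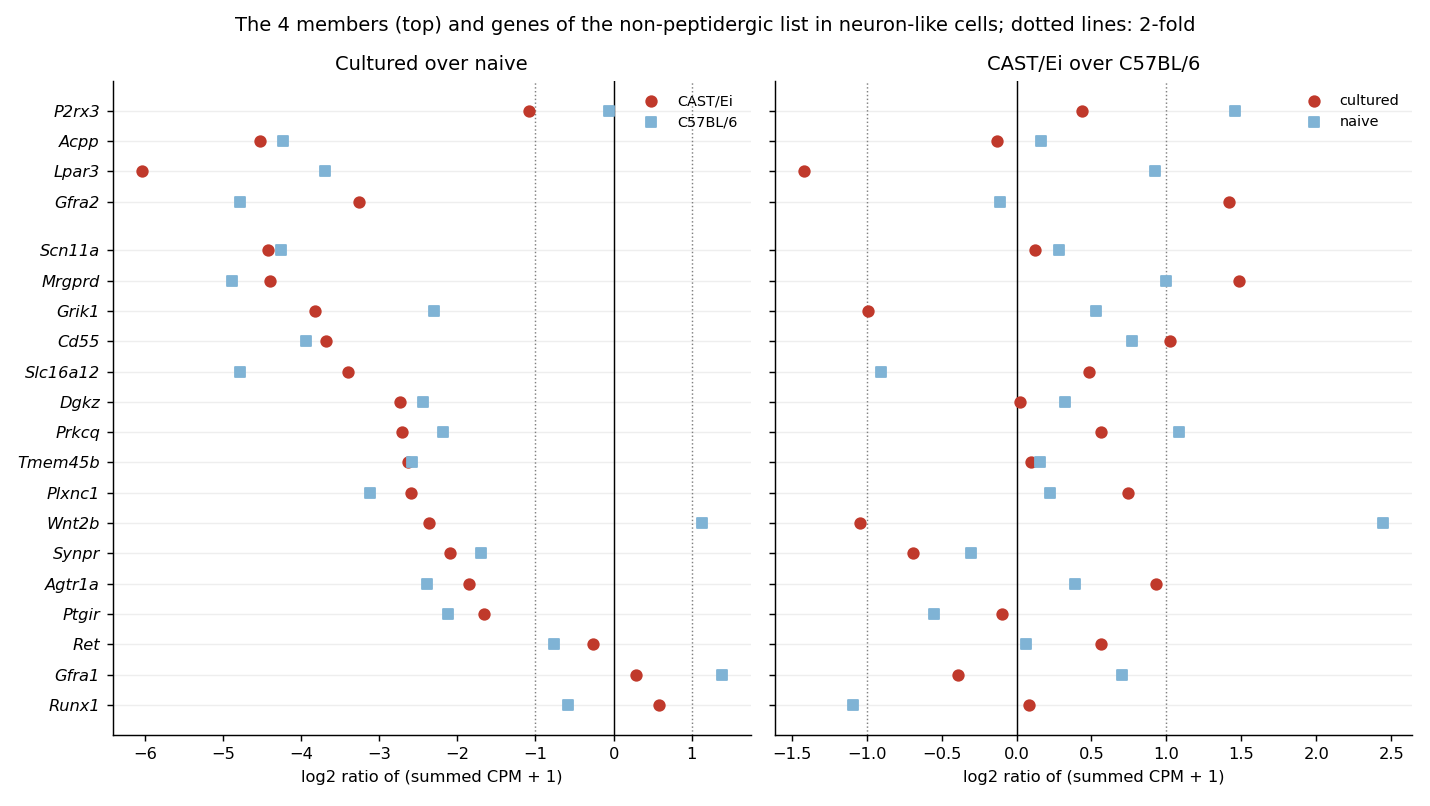
Log2 ratio of summed CPM + 1 in neuron-like cells for the 4 members (top) and genes of the non-peptidergic list, cultured over naive on the left (CAST/Ei circles, C57BL/6 squares) and CAST/Ei over C57BL/6 on the right (cultured circles, naive squares), with dotted lines at 2-fold. Most points on the left lie beyond the 2-fold line on the lower side, and P2rx3 is the member nearest to 0.

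Glia and fibroblast markers summed higher in cultured neuron-like cells, and their part in the ratios was not tested. The 17 measured markers of satellite and Schwann glia summed to 4507 CPM in cultured CAST/Ei and 4962 CPM in cultured C57BL/6 neuron-like cells, against 2783 and 3591 CPM in naive ones. Sox10, a defining glia factor, had 151.4 and 83.4 CPM in culture, against 1.94 and 2.92 CPM in naive cells. In the cultured cells that were not neuron-like it had 93.4 and 118.2 CPM, CAST/Ei before C57BL/6. The 11 measured fibroblast markers summed to 4155 and 4436 CPM in cultured neuron-like cells, against 599 and 608 CPM in naive ones. No marker of either list was at 0 in any of the 4 sets. Without the 25% of cells highest in glia markers in each group, the ratios of Acpp, Lpar3 and Gfra2 were -4.32, -6.20 and -3.91 in CAST/Ei and -4.03, -3.42 and -5.01 in C57BL/6. The neuron-like call had a narrow margin in culture. On the log2 scale the neuron, glia and fibroblast lists had means of 5.71, 5.41 and 5.06 in cluster 2. In cluster 3 they had 4.8, 4.22 and 3.7. With each cell called by its own marker means, 62 cultured CAST/Ei and 32 cultured C57BL/6 cells were neuron-like, against 78 and 38. No doublet caller was run.

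The genes around each member in its own pathway are set against all genes, of which 24.1% stood 2-fold or more above naive cells and 20.2% as far below them in cultured CAST/Ei, and 22.8% higher and 23.4% lower in cultured C57BL/6. Of 6 other nucleotide receptors in the table, 2 were higher and 2 lower in CAST/Ei, and 2 higher and 1 lower in C57BL/6, which is near those shares. A single cell held 91.2% of the CAST/Ei reads of P2ry12, 1 of the higher genes, and without the top cell its ratio was 0.40. P2rx2, the usual partner subunit of P2X3, had 0.214 CPM in cultured and 17.9 CPM in naive CAST/Ei, and 9.96 CPM in cultured and 14.7 CPM in naive C57BL/6, where all cultured reads came from 1 cell. P2ry1, a Gq-coupled ADP receptor, was lower in both strains, at -3.53 in CAST/Ei and -3.70 in C57BL/6. P2rx7 was higher, at 3.85 and 3.57, and stood at 44.1 and 43.3 CPM in cultured neuron-like cells beside 64.5 and 57.2 CPM in cultured glia-like cells. In C57BL/6 1 cell held 47.6% of these reads, and without the top cell of each group the level was 23.8 CPM and the ratio 3.06.

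Among 10 genes of extracellular nucleotide and adenosine handling, 3 were higher and 7 lower in cultured CAST/Ei, and 3 higher and 6 lower in C57BL/6. Of all genes, 24.1% were higher and 20.2% lower in CAST/Ei, and 22.8% and 23.4% in C57BL/6. Entpd3, an ectonucleotidase known from nociceptors, had log2 ratios of -3.44 and -3.03, the adenosine receptor gene Adora1 -2.16 and -1.23, and Adk, adenosine kinase, -3.10 and -2.37. Nt5e, which like Acpp makes adenosine from AMP, was lower in CAST/Ei (-2.98) and within 2-fold in C57BL/6 (-0.56). The higher genes were Entpd1 (3.17 and 2.83), Entpd2 (4.43 and 4.07) and Enpp1 (4.72 and 1.51). Entpd2, known from glia, had 115.9 and 63.2 CPM in cultured neuron-like cells beside 442 and 199 CPM in cultured glia-like cells. Of the Enpp1 reads in cultured CAST/Ei neuron-like cells, 87.6% came from 1 cell, and without the top cell of each group its CAST/Ei ratio was 2.15.

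Of 7 other genes of lysophosphatidic acid signalling, 3 were higher and 0 lower in cultured CAST/Ei, and 4 higher and 2 lower in C57BL/6, beside 24.1% higher and 20.2% lower over all genes in CAST/Ei and 22.8% and 23.4% in C57BL/6. Lpar1 moved the other way from Lpar3, with 379 CPM in cultured and 133.8 CPM in naive CAST/Ei and 498 CPM in cultured and 233 CPM in naive C57BL/6. It had 832 and 1064 CPM in cultured glia-like cells. Enpp2, which encodes autotaxin, the enzyme that makes the ligand, was at -0.27 in CAST/Ei and -3.01 in C57BL/6. In the GDNF family 1 of 6 genes was higher and 1 lower in cultured CAST/Ei, and 2 were higher and 1 lower in C57BL/6, which is near the same shares. The ligand gene Gdnf had 32.5 and 10.3 CPM in culture, against 0.892 and 0.0317 CPM in naive cells, and 41.6 and 12.3 CPM in cultured glia-like cells. In C57BL/6 1 cell held 59.3% of the cultured reads, and without the top cell the level was 4.39 CPM. The artemin co-receptor gene Gfra3 was within 2-fold in both strains, at -0.34 and 0.15.

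Between strains in culture, 1 of 4 members (Gfra2, log2 ratio 1.41) stood 2-fold or more above C57BL/6, beside 21.2% of all genes, and 1 (Lpar3, -1.42) at least 2-fold lower, beside 13.6%. Both calls rested on few cells. The 49 Lpar3 reads of cultured C57BL/6 come down to 4 without the single Mrgprd-cluster cell, and without the cell with the most reads in each group the ratios were 0.96 for Gfra2 and -0.06 for Lpar3. P2rx3 stood at 0.43 and Acpp at -0.13.

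Gfra2 was also found outside neuron-like cells. The 30 cultured C57BL/6 glia-like cells, whose leading genes are those of dividing cells, had 53.1 CPM (50.4 to 55.99), with reads in 25 of 30 cells and a highest cell of 223 CPM. That is above the 5.40 CPM of cultured C57BL/6 neuron-like cells. The 11 cultured CAST/Ei glia-like cells had 1.75 CPM (1.18 to 2.50), with a highest cell of 27.5 CPM. The other 3 members stood at 9.28 CPM or less in the same C57BL/6 cells, and Ret at 17.03 CPM. A single C57BL/6 cell held 33.3% of these Gfra2 reads, and the strains differ in the number of such cells.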

How the data were processed

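Single cells were captured on a microfluidic chip and their polyadenylated RNA was amplified and sequenced without molecular identifiers, per the labels' protocols. The authors deposited raw read counts, whole numbers for 11251 genes in 516 cells: 99 cultured CAST/Ei, 111 cultured C57BL/6, 174 naive CAST/Ei and 132 naive C57BL/6. Every gene has a read in at least 60 cells, and 0 columns were left unused. Bowtie2, SAMtools and mm10 are named without versions, per the submitters' processing notes. How reads were assigned to genes, with which annotation and strand setting, is not given in the sources used here. CAST/Ei reads differ from the mm10 reference, which can lower a count.

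Counts were scaled to CPM. Cells were clustered on log2(CPM + 1) of 2000 variable genes (20 principal components, 15 neighbours, Leiden resolution 1, leidenalg 0.10.2, scikit-learn 1.9.0, Python 3.11.15) without the members and the non-peptidergic list, and named from marker lists. No cell was filtered. Neuron-like cells numbered 78, 38, 156 and 116 in that order, and 70, 31, 148 and 109 after thinning to 200000 reads. Ratios are log2 of summed CPM + 1, and at least 2-fold was called. The genes named are the members, the 5 most and 3 least like each, and the listed pathway and marker genes, of which 1 is not reported here. Those in a few further sentences (Atf3, Sprr1a, Ssrp1, Mrgprb4, cluster-leading genes) were chosen after their values were seen. Members and lists were chosen with earlier results of these data known. The formulas for ratio and likeness were tried on simulated cells in a separate check, which left out the averaging of likeness over strains. Intervals and limits cover counting error only.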

Additional observations from a re-analysis of the deposited data

Results flagged for a closer look

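Wnt2b, a gene of the non-peptidergic list, stood on opposite sides of its naive level in the cultured cells of the strains. Its log2 ratio of cultured over naive was -2.36 in CAST/Ei, where it had 2.55 CPM in cultured and 17.3 CPM in naive neuron-like cells, and 1.13 in C57BL/6, where it had 6.33 CPM in cultured and 2.36 CPM in naive ones. A single cell held 47.9% of its reads in cultured CAST/Ei and 57.4% in cultured C57BL/6, and without the top cell of each group the C57BL/6 ratio was 0.35. Runx1 had 0.58 in CAST/Ei, with 269 CPM in cultured and 179 CPM in naive cells, and -0.59 in C57BL/6, with 254 and 382 CPM. Neither difference between strains was tested, since each group is 1 sample. In the main setting no member had ratios of opposite sign. The P2rx3 ratio in C57BL/6 was above 0 in 4 of 14 other settings, up to 0.57, while the CAST/Ei ratio was below 0 in all of them.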

How the results depend on the processing

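Each group is 1 sample, so between-animal variation is not known. No paired analysis was possible because no result comes from a test. The alternatives with equal pair weights, single cultured clusters, 5 cells left out, the 2 cultured cells in naive clusters left out, those for P2rx3 in the Th pair, and the levels of listed genes without their top cell were chosen after seeing the data. Acpp, Lpar3 and Gfra2 stayed at least 2-fold lower in culture in both strains under all 14 settings tried. P2rx3 crossed 2-fold in 5 of 14 settings in CAST/Ei (-1.84 to -0.70) and in 2 of 14 in C57BL/6 (-1.79 to 0.57), the lowest with all cells summed. Its naive strain ratio stayed above 2-fold, and its Th pair ratio between 3.37 and 4.38.

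The cultured strain comparison was the least steady. Its count of members past 2-fold, 2 in the main setting, was 1 with the members kept in the clustering, with cells weighted equally, with thinned cells and without the 2 cells in naive clusters, and 0 with a pseudocount of 10 CPM and without the 1 or 5 cells with the most reads. Lpar3 turned to 0.44 with all cells and 0.0458 without the 2 cells, and Gfra2 to -0.56 with all cells. With all cells P2rx3 (1.93) and Acpp (1.51) passed 2-fold in that comparison. Over 12 settings Acpp crossed 2-fold in 2 and changed sign in 6. The non-peptidergic list count there, 4, was 8 with all cells, 0 with 10 CPM, and 2 with equal cell weights and without 5 cells. The naive list count, 3, was 5 without 5 cells. Cells with all 4 members made up 34.46% of naive CAST/Ei and 33.03% of naive C57BL/6 at 1 read, and 33.97% and 30.17% without thinning. The cause of these shifts was not tested. Both other scalings moved the median log2 ratio of all genes by more than 0.1 in 2 comparisons. For cultured over naive CAST/Ei it was -0.0024 with median-of-ratios size factors and -0.0097 with TMM factors, against 0.109, and for CAST/Ei over C57BL/6 in culture -0.0235 and 0.0363, against 0.162.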
